A study of Mus musculus with 15 samples.

Results

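Matrix metalloproteinases (MMPs), their tissue inhibitors (TIMPs) and the matrix protein gene Sparc were followed across lymphatic endothelial cells, the cells that line lymphatic vessels and the sinuses of lymph nodes. The set was chosen by gene symbol and held Mmp2, Mmp9, Mmp14, Mmp15, Timp1, Timp2, Timp3 and Sparc, 8 of the 21839 genes in the count table. All 8 passed the filter on low counts and were tested among 13887 genes. The cells came from C57BL/6 mice of 10 weeks that carried a transplanted melanoma of a lymphangiogenic line, that is, a line that makes lymphatic vessels grow. The groups were lymphatic cells sorted from the tumor itself (Tumor), from the lymph node draining it (TdLN) and from a node that does not drain it (NdLN), with 5 libraries in each. Every group, NdLN included, therefore came from tumor-bearing mice, and no tumor-free animal is among the libraries used here. The labels do not state if the 5 libraries of a group are separate animals, so p-values reflect a spread that may be technical.

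MMPs are zinc enzymes that cut collagens and other matrix proteins, and most are made as inactive precursors. MMP14, a membrane-anchored collagenase, activates the precursor of the gelatinase MMP2 at the cell surface with TIMP2 as its adaptor, while MMP9 is another secreted gelatinase and MMP15 another membrane-anchored enzyme. TIMP1, TIMP2 and TIMP3 bind active MMPs and block them. TIMP3 stays bound to the matrix and also inhibits some ADAM and ADAMTS enzymes, whereas TIMP1 inhibits MMP14 poorly. SPARC is a secreted collagen-binding glycoprotein of remodelled tissue.

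Total counts ranged from 23830337 to 34577494 in Tumor libraries, from 32134127 to 37043976 in TdLN libraries and from 31894931 to 37437282 in NdLN libraries. Levels are given as CPM, counts scaled to the library total and edgeR's TMM factor, and as CPM per kilobase of exon where genes are set against each other. The sort kept cells without CD45 and with CD31 and gp38, the proteins of Ptprc, Pecam1 and Pdpn. Pdpn averaged 116, 120 and 124 CPM in Tumor, TdLN and NdLN libraries. Pecam1 averaged 276, 1179 and 1596 CPM and Ptprc 1.68, 1.10 and 5.43 CPM in the same groups, and Prox1, the transcription factor of lymphatic identity, 105, 539 and 766 CPM. Markers of other cell types were present in every group. The 11 blood endothelium markers summed to 731 to 1297 CPM in Tumor, 3313 to 7539.7 CPM in TdLN and 3235 to 6281 CPM in NdLN libraries. Of these, 3 were called higher and 6 lower in Tumor against TdLN in edgeR's test, where 62.0% of all genes were called. The 7 lymphatic endothelium markers summed to 3269 to 4458, 5255 to 6757 and 6003 to 8109 CPM in Tumor, TdLN and NdLN libraries. The summed level of 9 pigment cell markers was 24375 to 40008 CPM in Tumor libraries, against 12.0 to 33.2 CPM in TdLN and 17.8 to 37.8 CPM in NdLN libraries. The 11 fibroblast markers summed to 1501 to 10632 CPM in Tumor, 921 to 1786 CPM in TdLN and 1202 to 2338 CPM in NdLN libraries. The node sums were mostly Postn, picked out after its values were seen, at 170.0 CPM in Tumor, 1149 CPM in TdLN and 1381 CPM in NdLN libraries. In edgeR's test 10 of the 11 fibroblast markers were called higher and 1, Postn, lower in Tumor against TdLN (median log2 fold change 4.13). Against NdLN, 9 were higher and 1 lower in Tumor libraries (3.92). Of all genes tested, 31.9% were called higher in Tumor against TdLN and 34.0% in Tumor against NdLN. The 9 macrophage markers summed to 70.3 to 144 CPM in Tumor, 6.34 to 21.6 CPM in TdLN and 2.42 to 13.1 CPM in NdLN libraries, and all 9 were called higher in Tumor against either node (median 3.63 against TdLN, 3.87 against NdLN). The 5 node sinus markers summed to 8.35 to 16.6 CPM in Tumor, 5161 to 6739.5 CPM in TdLN and 5141 to 6682 CPM in NdLN libraries. Their part in the differences between Tumor and node libraries described here was not tested, and in such bulk RNA more cells of a type and more RNA per cell cannot be told apart.

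The RefSeq promoter windows, 250 bases before to 50 after the gene's start in GRCm38.p6, were at hand for 6 of the 8 genes, Mmp14, Mmp15, Timp1, Timp2, Timp3 and Sparc, and not for Mmp2 and Mmp9. Those of Timp1 and Sparc are shown because they are the members that differed between the nodes, and that of Timp3 because it is the inhibitor with the most even levels within groups. Capitals mark matches, on either strand, to 5 motifs: the consensus and a variant of the AP-1 element, the GC box, the TATA box and the core of the hypoxia response element. The windows are chrX:20869916-20870215 on the plus strand for Timp1, chr11:55420031-55420330 on the minus strand for Sparc and chr10:86300162-86300461 on the plus strand for Timp3.
Timp1: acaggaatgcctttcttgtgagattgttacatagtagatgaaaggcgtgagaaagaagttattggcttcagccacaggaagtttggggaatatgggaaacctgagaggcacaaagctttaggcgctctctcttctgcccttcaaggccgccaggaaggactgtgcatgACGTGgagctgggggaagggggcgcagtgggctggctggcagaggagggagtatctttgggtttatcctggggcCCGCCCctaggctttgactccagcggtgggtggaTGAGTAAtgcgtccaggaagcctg
Sparc: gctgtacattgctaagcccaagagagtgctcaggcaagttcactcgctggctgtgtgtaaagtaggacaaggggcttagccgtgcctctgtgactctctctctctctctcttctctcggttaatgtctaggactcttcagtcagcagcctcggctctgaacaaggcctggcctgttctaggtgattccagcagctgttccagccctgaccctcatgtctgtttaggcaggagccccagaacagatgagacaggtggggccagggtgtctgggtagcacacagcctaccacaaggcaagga
Timp3: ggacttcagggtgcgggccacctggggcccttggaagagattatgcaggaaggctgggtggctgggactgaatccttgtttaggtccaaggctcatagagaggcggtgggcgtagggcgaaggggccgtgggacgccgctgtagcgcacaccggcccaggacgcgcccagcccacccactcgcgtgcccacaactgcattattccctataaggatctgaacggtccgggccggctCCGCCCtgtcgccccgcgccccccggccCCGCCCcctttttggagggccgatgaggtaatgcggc
The Timp1 window held the AP-1 variant, TGAGTAA, 26 bases after the start, which 2.64% of all 32544 RefSeq windows of this length hold on either strand. It also held a GC box, searched as GGGCGG and present in 35.9% of all windows. A hypoxia core, searched as ACGTG, lay further upstream in the same window and is present in 19.7% of all windows. In the Timp3 window 2 GC boxes were found, and in the Sparc window none of the 5 motifs. GC content was 55.0% for Timp1, 55.3% for Sparc and 67.0% for Timp3, against a median of 53.0% over all windows. A GC box was also present in the windows of Mmp14, Mmp15 and Timp2 and a hypoxia core in that of Mmp14. The AP-1 consensus, searched as TGANTCA and present in 7.79% of all windows, was in none of the 6. Nor was the TATA box, searched as TATAAA and present in 13.6% of all windows. These matches describe letters in a short window and are not evidence of binding. The Sparc window lies inside the span that GENCODE M21 gives the gene (chromosome 11, 55394500 to 55423183).

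MMP transcripts differed in makeup between the Tumor and the node libraries. Mmp2 and Mmp15 were higher in Tumor libraries by 55.4-fold and 12.6-fold over TdLN, Mmp9 was lower by 171-fold, and Mmp14 was abundant in all 3 groups. In the edgeR quasi-likelihood test with Benjamini-Hochberg adjustment over all genes (called at an adjusted p under 0.05), 3 of the 8 members were higher and 2 lower in Tumor than in TdLN libraries, while 62.0% of all genes tested were called in that comparison, 31.9% higher and 30.1% lower. Against NdLN, 5 members were higher and 2 lower in Tumor libraries, beside 66.5% of all genes, 34.0% higher and 32.5% lower. Libraries did not overlap for Mmp2, Mmp9, Mmp15 and Timp3 between Tumor and TdLN (46.6% of all genes) and for Mmp2, Mmp9, Mmp14, Timp1, Timp3 and Sparc between Tumor and NdLN (54.6%). Shares of called members are thus read against a background in which most genes were called, and both comparisons use the same Tumor libraries.

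**Figure D1:**
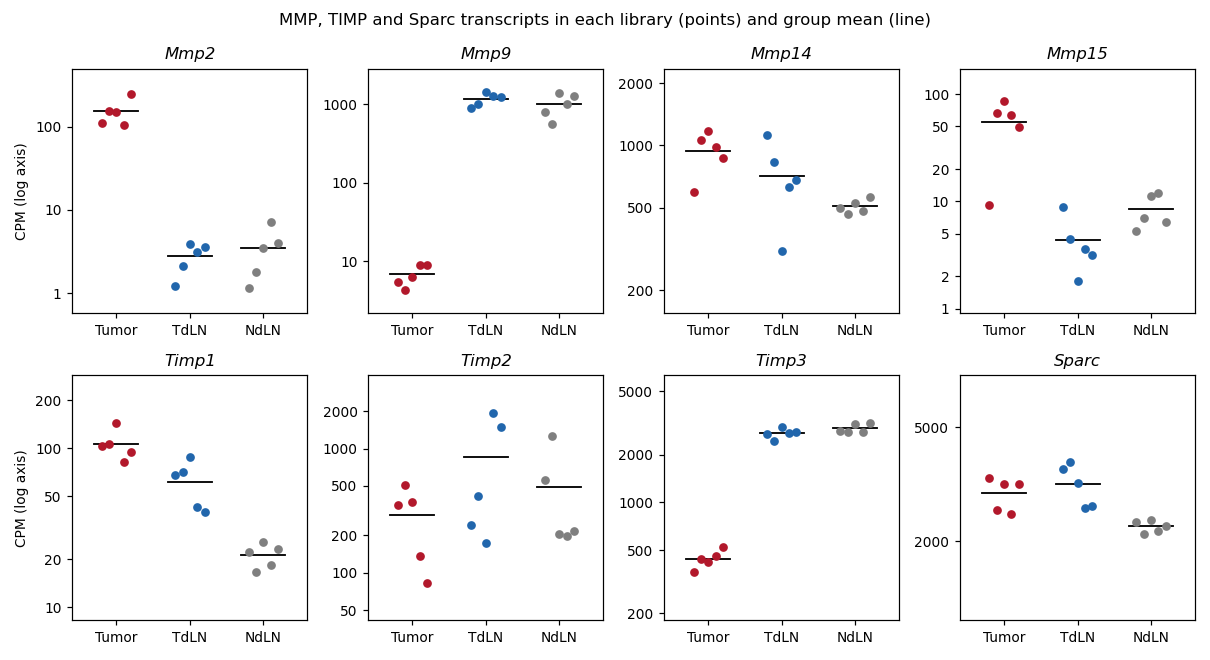
Levels of the 8 members in every library, in CPM on a log axis, with a line at each group mean (5 libraries a group, Tumor left, TdLN middle, NdLN right). Mmp2 sits at 106 to 249 CPM in Tumor and at or below 7.13 CPM in node libraries, Mmp9 and Timp3 are lower in Tumor libraries, and Timp2 spreads widely inside every group.

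Mmp2, on chromosome 8 (92827291 to 92853420, plus strand, GRCm38), encodes gelatinase A. Its level was 112, 155, 148, 106 and 249 CPM in Tumor libraries 1 to 5, against 1.21, 2.13, 3.86, 3.13 and 3.58 CPM in TdLN libraries and 1.15, 1.80, 3.45, 7.13 and 3.98 CPM in NdLN libraries. Every Tumor library was above every node library, while the nodes overlapped. The log2 fold change was 5.79 ± 0.50 over TdLN (SE, edgeR adjusted p = 1.17e-07) and 5.46 ± 0.49 over NdLN (adjusted p = 1.51e-07), with n = 5 libraries a group. The fibroblast marker sum was 1501, 6842, 4396, 2853 and 10632 CPM in Tumor libraries 1 to 5. Ordered by Mmp2, the Tumor libraries followed the same order as by this sum, apart from Tumor 4 and Tumor 1, the lowest pair in both, which changed places. Genes with the most similar profile over the 15 libraries were Col3a1, Gpx3 and Col1a2, whose centred log2 CPM differed from that of Mmp2 by a root mean square of 0.62, 0.66 and 0.67, while Mmp2 itself varied by 2.78. Col3a1 and Col1a2 encode fibrillar collagen chains and are on the fibroblast marker list. With Col1a1 they made up most of that sum in Tumor libraries on average, where Col1a1 averaged 1167 CPM and Col1a2 1147 CPM. The order by the sum and these nearest genes are thus not separate observations, and the order over 5 libraries carries no test. Col3a1 averaged 2114 CPM in Tumor, 45.5 CPM in TdLN and 50.8 CPM in NdLN libraries. Once each gene was centred inside its group, the nearest were instead Rsad2, Sparcl1 and Hspa1a. Each differed from Mmp2 by a root mean square of 0.43, while Mmp2 itself varied by 0.67. Which cells the Mmp2 transcripts came from was not tested.

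Mmp9, on chromosome 2 (164940780 to 164955850, plus strand), encodes gelatinase B and ran the other way. Tumor libraries 1 to 5 held 5.49, 4.36, 6.35, 8.94 and 9.10 CPM, against 891, 996, 1420.2, 1281 and 1249 CPM in TdLN and 785, 564, 1403, 1016 and 1273 CPM in NdLN libraries. Every node library was thus far above every Tumor library. The log2 fold change was -7.41 ± 0.33 against TdLN (edgeR adjusted p = 8.65e-11) and -7.20 ± 0.32 against NdLN (adjusted p = 9.08e-11). Neutrophils are a well known source of Mmp9, so their markers were read beside it. The 7 neutrophil markers summed to 0.112 to 1.11 CPM in Tumor, 0 to 0.981 CPM in TdLN and 0.0957 to 2.88 CPM in NdLN libraries. T and B cell markers summed to 4.94 to 7.66 CPM in Tumor, 15.1 to 30.0 CPM in TdLN and 19.4 to 50.2 CPM in NdLN libraries. Macrophage and blood endothelium markers had the sums given above. Node sinus markers summed to 8.35 to 16.6 CPM in Tumor, 5161 to 6739.5 CPM in TdLN and 5141 to 6682 CPM in NdLN libraries. Ordered by Mmp9, the TdLN libraries followed the order of the node sinus sum, while the NdLN libraries did not. Which cells the Mmp9 transcripts came from was not tested. Nearest to Mmp9 in profile were Cd55, which encodes a complement regulator of the cell surface, the proteoglycan gene Srgn and the carboxylesterase gene Ces2g, at root mean square differences of 0.35, 0.46 and 0.48 against 3.47 for Mmp9 itself. Cd55 averaged 16.2 CPM in Tumor, 1703 CPM in TdLN and 1832 CPM in NdLN libraries.

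Mmp14, on chromosome 14 (54431612 to 54445364, plus strand), encodes the membrane-anchored activator of MMP2. It stood at 595, 1058, 1175, 983 and 875 CPM in Tumor libraries, against 1122, 837, 310.2, 631 and 678 CPM in TdLN and 497, 468, 526, 485 and 564 CPM in NdLN libraries. Tumor and TdLN libraries overlapped, whereas every Tumor library was above every NdLN library. Mmp14 was higher in Tumor than in NdLN libraries, by 0.88 ± 0.26 on the log2 scale (edgeR adjusted p = 0.00656), and did not pass against TdLN (0.39 ± 0.25, adjusted p = 0.196). That second value depended on TdLN 1, the TdLN library with the most Mmp14: without it the log2 fold change was 0.60 ± 0.24 (adjusted p = 0.0407). The spread inside TdLN was wide, 716 ± 297 CPM (SD, n = 5), beside 937 ± 220.3 CPM in Tumor and 508 ± 37.8 CPM in NdLN libraries.

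Mmp15, on chromosome 8 (95352268 to 95375080, plus strand), encodes another membrane-anchored MMP. Tumor libraries 1 to 5 had 9.17, 66.3, 86.6, 64.0 and 48.9 CPM, against 8.89, 4.46, 1.81, 3.61 and 3.13 CPM in TdLN and 5.26, 7.07, 11.3, 12.0 and 6.46 CPM in NdLN libraries. Tumor 1 stood apart from the other Tumor libraries, just above the highest TdLN library and below 2 NdLN libraries. Mmp15 was higher in Tumor libraries by 3.65 ± 0.54 on the log2 scale against TdLN (edgeR adjusted p = 2.9e-05) and by 2.71 ± 0.51 against NdLN (adjusted p = 0.000255). Without Tumor 1 the values were 3.92 ± 0.41 and 2.98 ± 0.39. Insig1, a regulator of sterol synthesis, was among the 3 nearest profiles with Fam53b and the cell adhesion gene Nrcam, at root mean square differences of 0.82 for Insig1, 0.76 for Fam53b and 0.78 for Nrcam against 1.69 for Mmp15.

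The inhibitors moved in different directions. Timp1 was highest in Tumor, intermediate in TdLN and lowest in NdLN libraries, Timp3 was lower in Tumor libraries by 6.15-fold against TdLN, and Timp2 varied widely inside groups and passed in no comparison.

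Timp1 lies on chromosome X (20870166 to 20874735, plus strand), within the span of Syn1 on the other strand, with which it shares 0 exon bases. Its level was 103, 106, 143, 82.1 and 94.5 CPM in Tumor libraries, against 67.7, 70.5, 87.7, 42.4 and 39.7 CPM in TdLN and 22.4, 16.6, 25.8, 18.4 and 23.3 CPM in NdLN libraries. Both Tumor and TdLN stood clear of NdLN, and Tumor and TdLN overlapped only through Tumor 4 and TdLN 3. Timp1 was higher in Tumor libraries by 0.78 ± 0.22 against TdLN (log2, edgeR adjusted p = 0.00557) and by 2.31 ± 0.23 against NdLN (adjusted p = 3.6e-07). Means were 106 ± 22.9 CPM in Tumor, 61.6 ± 20.3 CPM in TdLN and 21.3 ± 3.75 CPM in NdLN libraries (SD, n = 5 each). Closest in profile were Kif22, a kinesin of the mitotic spindle, Tcf19 and the uridine phosphorylase gene Upp1, at root mean square differences of 0.33, 0.33 and 0.38 against 1.01 for Timp1. Tcf19 averaged 85.1 CPM in Tumor, 41.5 CPM in TdLN and 17.5 CPM in NdLN libraries.

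Timp3, on chromosome 10 (86300372 to 86349506, plus strand), encodes the matrix-bound inhibitor. Tumor libraries 1 to 5 held 363, 441, 423, 461 and 524 CPM, against 2703, 2430.1, 2976, 2739.7 and 2761 CPM in TdLN and 2836, 2793, 3125, 2781 and 3153 CPM in NdLN libraries. The Tumor range lay wholly under the node range, and within each group Timp3 varied little, with a coefficient of variation of 13.2%, 7.16% and 6.32% in Tumor, TdLN and NdLN. Its log2 fold change was -2.62 ± 0.11 against TdLN (edgeR adjusted p = 3.56e-11) and -2.73 ± 0.11 against NdLN (adjusted p = 2.24e-11). Timp3 shares 1733 exon bases with Syn3 on the opposite strand, and the strand setting of the counting is not given. Syn3 had 260 counts over the 15 libraries together, against 74834 counts of Timp3 in the Tumor libraries alone. Nfkbie, an inhibitor of NF-kB, the lipase gene Daglb and Phldb2 were nearest in profile, at 0.14, 0.14 and 0.18 against 1.27 for Timp3, and Nfkbie averaged 69.9 CPM in Tumor, 435 CPM in TdLN and 402 CPM in NdLN libraries.

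Timp2, on chromosome 11 (118301069 to 118355740, minus strand), encodes the adaptor of MMP2 activation. It stood at 351, 513, 372, 136 and 82.9 CPM in Tumor libraries, against 241, 419, 173, 1944 and 1498 CPM in TdLN and 556, 1275, 207, 198 and 218 CPM in NdLN libraries. The groups overlapped, and the highest library exceeded the lowest by 6.18-fold in Tumor, 11.3-fold in TdLN and 6.42-fold in NdLN. Log2 fold changes were -1.56 ± 0.74 in Tumor against TdLN (edgeR adjusted p = 0.0812) and -0.75 ± 0.73 in Tumor against NdLN (adjusted p = 0.375). Without TdLN 3 the first was -1.82 (adjusted p = 0.0404). Its coefficient of variation was 61.2% in Tumor, 94.9% in TdLN and 94.4% in NdLN libraries.

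The spread of Timp2 went with a pattern shared by other genes. The second principal component of all tested genes, which held 5.45% of the variance beside 72.6% on the first, ordered libraries inside groups much as Timp2 did. Tumor 1, 2 and 3, TdLN 4 and 5 and NdLN 1 and 2 had the highest component scores of their groups and the highest Timp2. TdLN 4, for example, scored 50.7 with 1944 CPM of Timp2, and TdLN 3 scored -53.9 with 173 CPM. Once each gene was centred inside its group, Sox4, a transcription factor gene, Ptpra, a receptor phosphatase gene, and Rnf11 were nearest to Timp2, at root mean square differences of 0.17, 0.19 and 0.22 against 1.16 for Timp2 itself. Sox4 had 97.2, 116, 109, 41.6 and 20.7 CPM in Tumor, 30.9, 66.8, 26.5, 246 and 209.9 CPM in TdLN and 95.1, 200.4, 41.1, 47.6 and 46.2 CPM in NdLN libraries. Sox4 was chosen as the gene nearest to Timp2 inside groups, so its likeness to Timp2 by library follows from that choice and is no separate support. In a fit with 1 surrogate variable, estimated from these same counts and added after seeing the data, the SE of Timp2 fell to 0.18 and its log2 fold change was -1.20 in Tumor against TdLN (edgeR adjusted p = 3.16e-05), -1.02 in Tumor against NdLN (adjusted p = 0.000125) and 0.18 in TdLN against NdLN (adjusted p = 0.635). In TdLN and in NdLN the blood endothelium marker sum, picked out after its values were seen, followed the same library order as Timp2. It ran from 3313 CPM in TdLN 3 to 7539.7 CPM in TdLN 4, and from 3235 CPM in NdLN 4 to 6281 CPM in NdLN 2. On average the node sums were mostly Plvap and Glycam1, so the order need not hold for the other markers. Plvap averaged 3325 CPM in TdLN and 2501 CPM in NdLN libraries, and Glycam1 2022 and 1454 CPM. The order differed in Tumor libraries, where this sum was lowest in Tumor 1 (731 CPM) and Timp2 in Tumor 5. No label records what the component stands for, and the source of the component and of the Timp2 spread was not tested.

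**Figure D2:**
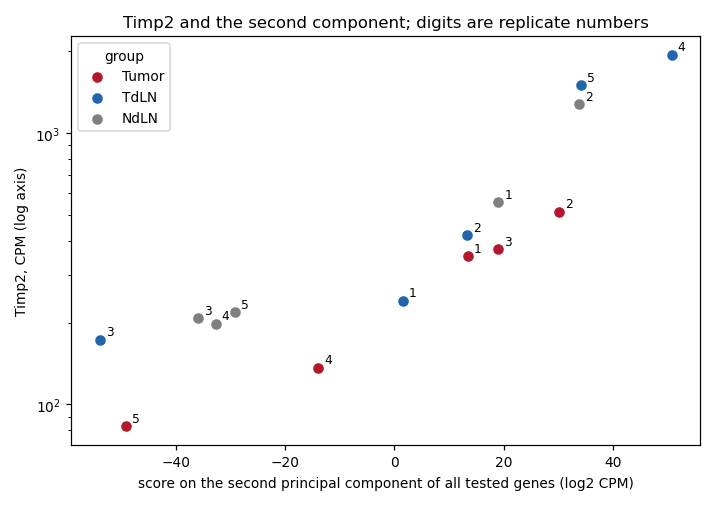
Timp2 level in CPM (log axis) against each library's score on the second principal component, coloured by group and numbered by replicate. In every group the libraries with the highest scores carry the most Timp2, from 82.9 CPM in Tumor 5 at a score of -49.1 to 1944 CPM in TdLN 4 at 50.7.

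Sparc, on chromosome 11 (55394500 to 55423183, minus strand), was the most abundant member per kilobase in each group. Its level was 3317, 2564, 3175, 2499 and 3169 CPM in Tumor libraries, against 3570.5, 3783, 3208, 2607 and 2655 CPM in TdLN and 2343, 2129, 2368, 2168 and 2268 CPM in NdLN libraries. Tumor and TdLN libraries overlapped, and both lay wholly above NdLN. Sparc was higher in Tumor than in NdLN libraries by 0.39 ± 0.12 (log2, edgeR adjusted p = 0.011), a 1.31-fold difference in mean CPM, and did not pass between Tumor and TdLN (-0.10 ± 0.12, adjusted p = 0.473). Its nearest profiles, Eif6, Gtf2h4 and Prdx4, differed from it by 0.12 to 0.13, but Sparc itself varied by only 0.26.

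**Figure D3:**
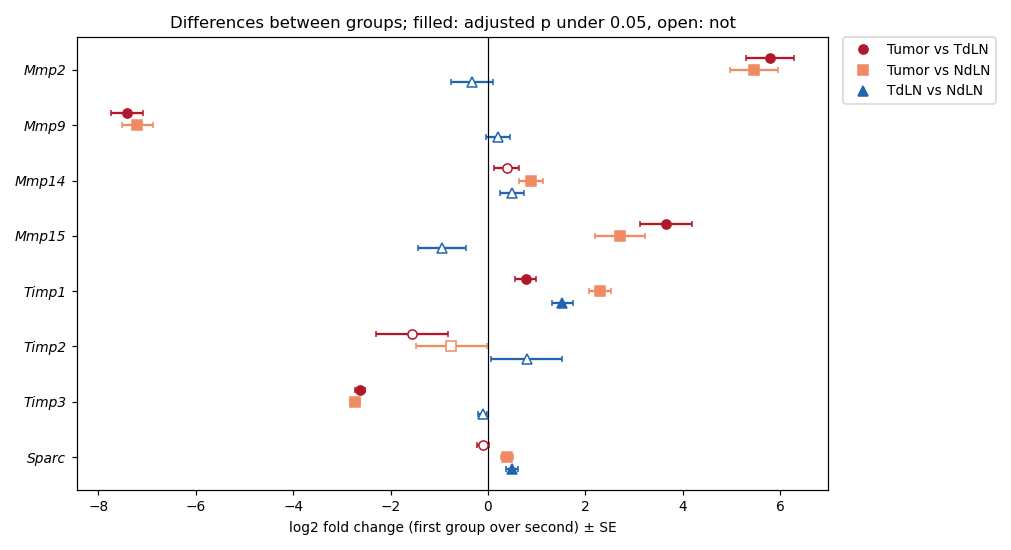
Log2 fold change of each member (first group over second, point) with its standard error (bar) in the 3 comparisons. Filled points passed an adjusted p under 0.05; Timp1 and Sparc are the filled points of TdLN against NdLN, and Timp2 is open in all 3.

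Between the 2 nodes only Timp1 and Sparc passed. Timp1 was 2.89-fold and Sparc 1.40-fold higher in TdLN than in NdLN libraries. These are 2 of 8 members, where 3.49% of all genes tested were called in this comparison, 1.84% higher and 1.64% lower. The log2 fold change of Timp1 was 1.53 ± 0.22 (edgeR adjusted p = 0.00243), and it kept its call whichever of the 10 node libraries was left out, at 1.37 to 1.66. That of Sparc was 0.49 ± 0.12 (adjusted p = 0.0376). Although every TdLN library was above every NdLN library for Sparc, the call was lost in 8 of the 10 fits that left out a library, with a log2 fold change of 0.42 to 0.55 and an adjusted p of 0.0192 to 0.108 over the 10. It stayed without TdLN 4 or TdLN 5. Both genes were higher in TdLN 1, 2 and 3 than in TdLN 4 and 5. Timp1 stood at 67.7, 70.5 and 87.7 CPM against 42.4 and 39.7 CPM. Sparc stood at 3570.5, 3783 and 3208 CPM against 2607 and 2655 CPM. Leaving out 1 library at a time does not remove that split. No overlap between TdLN and NdLN in either direction was seen for 7.83% of all genes tested.

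The other 6 members did not pass between the nodes. Mmp9 averaged 1167 ± 218 CPM in TdLN and 1008 ± 344 CPM in NdLN libraries (log2 fold change 0.21 ± 0.25, edgeR adjusted p = 0.713), and Timp3 2722 ± 195 and 2938 ± 186 CPM in TdLN and NdLN libraries (-0.11 ± 0.10, adjusted p = 0.622). Mmp14 was at 0.50 ± 0.25 (adjusted p = 0.336), Mmp15 at -0.94 ± 0.49 (adjusted p = 0.347), Timp2 at 0.80 ± 0.73 (adjusted p = 0.628) and Mmp2 at -0.33 ± 0.43 (adjusted p = 0.744) on the log2 scale. Mmp2 and Mmp15 were the lowest members per kilobase in both nodes, and a miss of the threshold does not show that they were equal. Against a log2 fold change of 1, edgeR's glmTreat called Mmp2, Mmp9, Mmp15 and Timp3 in Tumor against TdLN, beside 25.4% of all genes. It called the same 4 and Timp1 in Tumor against NdLN, beside 30.2%, and 0 genes of any kind between the nodes, where 407 had an unadjusted p under 0.05.

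Set against each other per kilobase of exon, the members kept different orders in tumor and nodes. In Tumor libraries Sparc (mean 777 CPM per kilobase) was followed by Mmp14 (157), Timp1 (119), Timp2 (74.7), Timp3 (54.3), Mmp2 (45.7), Mmp15 (10.2) and Mmp9 (1.93). In TdLN libraries the order was Sparc (835 CPM per kilobase), Timp3 (334), Mmp9 (329.9), Timp2 (219), Mmp14 (120.1), Timp1 (69.4), Mmp2 (0.825) and Mmp15 (0.812). NdLN libraries had Sparc (595 CPM per kilobase), Timp3 (361), Mmp9 (285), Timp2 (126), Mmp14 (85.2), Timp1 (24.0), Mmp15 (1.56) and Mmp2 (1.04). Sparc stood clear of the next member in each group. Other neighbours without overlapping libraries were Mmp2 over Mmp15 in Tumor, Timp1 over Mmp2 in TdLN, and Mmp14 over Timp1 and Timp1 over Mmp15 in NdLN, and all remaining neighbours overlapped.

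The MMP transcripts of tumor and node libraries were made up of different members. Of the summed CPM per kilobase of the 4 MMPs, Mmp14 held 73.1% ± 5.86 in Tumor, 26.8% ± 11.7 in TdLN and 24.1% ± 5.84 in NdLN libraries (SD, n = 5), and Mmp9 0.932% ± 0.306 in Tumor, 72.8% ± 11.7 in TdLN and 75.2% ± 5.85 in NdLN libraries. Mmp2 took 21.5% ± 6.76 in Tumor libraries and under 1% in every node library. Of the TIMP sum, Timp1 held 48.6% ± 6.29 in Tumor, 12.6% ± 6.54 in TdLN and 4.89% ± 1.33 in NdLN libraries, and Timp3 23.3% ± 8.11, 57.2% ± 15.4 and 73.0% ± 14.5 in the same groups. Mmp14 and Timp1 thus led their sums in the mean of the Tumor libraries, and Mmp9 and Timp3 in those of both nodes. The ratio of the MMP sum to the TIMP sum ranged from 0.544 to 1.21 in Tumor libraries, 0.532 to 0.940 in TdLN and 0.348 to 1.05 in NdLN libraries, so the groups overlapped. Mean sums were 215 ± 47.3, 451 ± 19.3 and 373 ± 103 CPM per kilobase for the MMPs in Tumor, TdLN and NdLN libraries, and 248 ± 59.6, 623 ± 189.8 and 511 ± 106 for the TIMPs in the same groups. These are transcript sums of 7 members chosen with results known, carry no test and say nothing of enzyme activity. Without Timp3 the mean ratio was 1.22 in Tumor, 2.12 in TdLN and 3.84 in NdLN libraries.

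**Figure D4:**
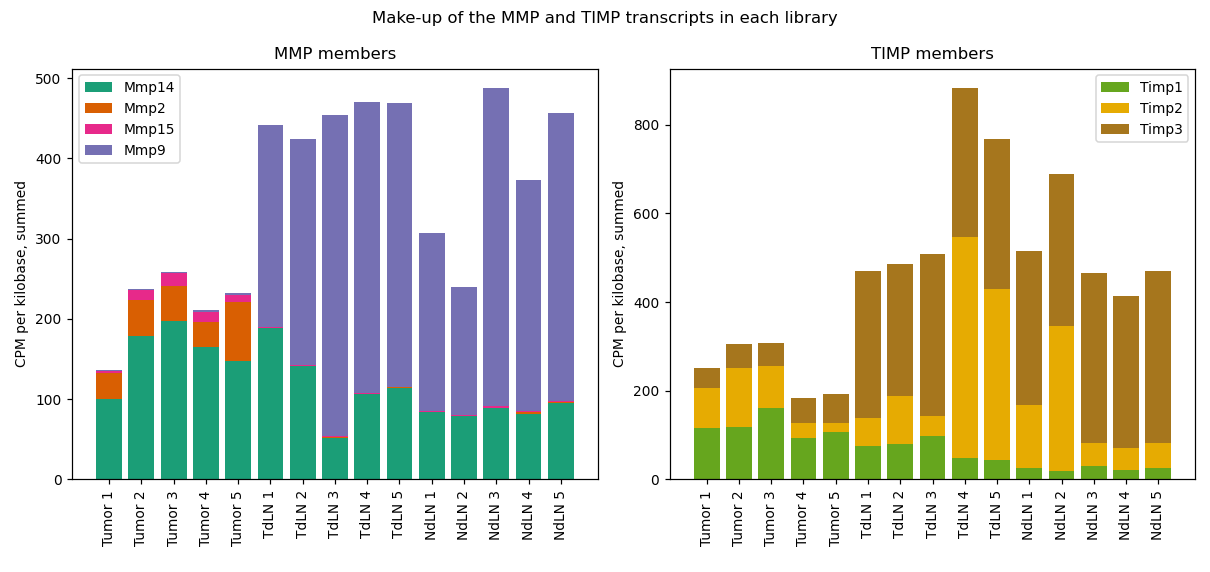
Stacked CPM per kilobase of the 4 MMP members (left) and 3 TIMP members (right) in each library, Tumor first, then TdLN and NdLN. Mmp14 makes up most of the MMP bar in Tumor libraries and Mmp9 in node libraries. Timp3 leads the TIMP bar in nodes except in TdLN 4 and 5, where Timp2 leads.

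Other genes of the pathway were read from lists given by role. Of all genes tested, 62.0% were called in Tumor against TdLN, 66.5% in Tumor against NdLN and 3.49% between the nodes. Counts from these lists are read beside those shares. Of 19 other MMP genes 11 were tested, with 3 higher, 3 lower and 5 not passing in Tumor against TdLN (median log2 fold change 0.16, beside 0.04 over all genes). Mmp3, a stromelysin, averaged 72.0 CPM in Tumor, 0.926 CPM in TdLN and 1.80 CPM in NdLN libraries (6.27 ± 0.95 over TdLN, edgeR adjusted p = 3.92e-05). Mmp19 was also higher (2.35 ± 0.30), and Mmp28 (-2.25 ± 0.28) and the membrane-anchored Mmp17 (-2.30 ± 0.52) were lower in Tumor libraries. Of the MMP genes too low to test, Mmp1a, Mmp1b and Mmp27, picked out after their values were seen, had no count in any library. Against NdLN, 4 of the 11 were higher and 4 lower in Tumor libraries, and between TdLN and NdLN 0 of the 11 passed in edgeR's test, with Mmp28 (unadjusted p = 0.0166), Mmp16 (0.0232) and Mmp24 (0.0447) under 0.05 before adjustment. DESeq2 and limma's voom called 0 of them as well.

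All 4 other inhibitors were called between tumor and nodes, 3 of them lower, beside 62.0% of all genes against TdLN and 66.5% against NdLN. Timp4, the remaining TIMP, averaged 0.469 CPM in Tumor, 153 CPM in TdLN and 213 CPM in NdLN libraries (log2 fold change -8.38 ± 0.34 against TdLN, edgeR adjusted p = 4.43e-11). Reck, a membrane-anchored MMP inhibitor, averaged 16.2 CPM in Tumor, 70.2 CPM in TdLN and 91.5 CPM in NdLN libraries (-2.11 ± 0.23). A2m, a broad protease trap, had 1 count in the 5 Tumor libraries together, against 3977 in TdLN and 3756 in NdLN libraries. Tfpi2, a secreted inhibitor of serine proteases, went the other way, at 78.1 CPM in Tumor, 17.9 CPM in TdLN and 16.4 CPM in NdLN libraries (2.12 ± 0.23). Timp3 thus had Timp4, Reck and A2m beside it on the lower side, and Timp1 had Tfpi2 on the higher side. Between the nodes 0 of the 4 passed, and 0 had an unadjusted p under 0.05, with 0 called by DESeq2 or voom too.

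Genes of MMP activation and of its cell-surface partners split in Tumor against TdLN, with 5 of 13 higher, 3 lower and 5 not passing. Bsg, an inducer of MMPs, averaged 1315 CPM in Tumor, 696 CPM in TdLN and 750.5 CPM in NdLN libraries (0.92 ± 0.10 over TdLN, edgeR adjusted p = 8.25e-07). Cd44, a hyaluronan receptor that docks MMP9 and MMP14, averaged 289 CPM in Tumor, 85.2 CPM in TdLN and 59.6 CPM in NdLN libraries (1.76 ± 0.20). Pcsk6, a proprotein convertase, was higher (2.29 ± 0.33), Serpine2, an inhibitor of thrombin and urokinase, was lower (-1.93 ± 0.26), and Furin, the convertase that activates MMP14 and was picked out after its values were seen, did not pass (0.28 ± 0.38, adjusted p = 0.534). Between the nodes 1 of the 13 passed, the plasminogen activator gene Plat, lower in TdLN at 231 CPM against 473 CPM in NdLN libraries (-1.03 ± 0.20, adjusted p = 0.0102).

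ADAM and ADAMTS enzymes are relatives of the MMPs, and TIMP3 inhibits some of them. Among their genes 6 of 16 were higher and 8 lower in Tumor against TdLN, the same numbers as against NdLN. Adam33 (-4.75 ± 0.43), Adamts9 (-3.79 ± 0.26), Adam9 (-1.38 ± 0.19) and the sheddase gene Adam10 (252 CPM in Tumor against 503 CPM in TdLN libraries) had the smallest adjusted p-values of the list in edgeR's test. Adam12 was higher in Tumor against NdLN libraries (3.28 ± 0.38) and also in TdLN against NdLN libraries, at 12.5 CPM against 4.46 CPM (1.49 ± 0.36, adjusted p = 0.0353). Adamts1 was lower in TdLN, at 317 CPM against 847 CPM in NdLN libraries (-1.42 ± 0.31, adjusted p = 0.0193), and the other 14 did not pass between the nodes. The 2 calls became 1 without TdLN 1 or 5 or without NdLN 1, 3 or 5.

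The relatives of Sparc moved in both directions. Of 7 SPARC family genes 2 were higher and 4 lower in Tumor against TdLN, and 2 higher and 5 lower in Tumor against NdLN. Sparcl1 (log2 fold change 3.09) and Smoc2 (10.36, a fitted value against a group with 3 counts) were the higher ones over NdLN, where Sparc was higher too. Sparcl1, the closest relative, averaged 320.0 CPM in Tumor, 14.3 CPM in TdLN and 37.5 CPM in NdLN libraries (4.49 ± 0.39 over TdLN, edgeR adjusted p = 1.17e-07), and Smoc2 28.3, 0.359 and 0.0169 CPM in the same groups, the last from 3 counts. Spock3 averaged 0.0641 CPM in Tumor, 33.6 CPM in TdLN and 64.5 CPM in NdLN libraries (-8.92 ± 0.35), and Fstl1 397, 972 and 1232 CPM in the same groups (-1.29 ± 0.13). Between the nodes Sparcl1 (-1.40 ± 0.34, adjusted p = 0.037) and Spock3 (-0.94 ± 0.22, adjusted p = 0.028) were lower in TdLN, the opposite direction to Sparc, and Smoc2 did not pass (4.09 ± 1.34, adjusted p = 0.119). However, 0 genes of this family passed without TdLN 1, 2 or 3 or without NdLN 3 or 5. Over the 5 related lists together, 5 genes passed between the nodes, and this number ran from 2 to 6 when a library was left out.

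**Figure D5:**
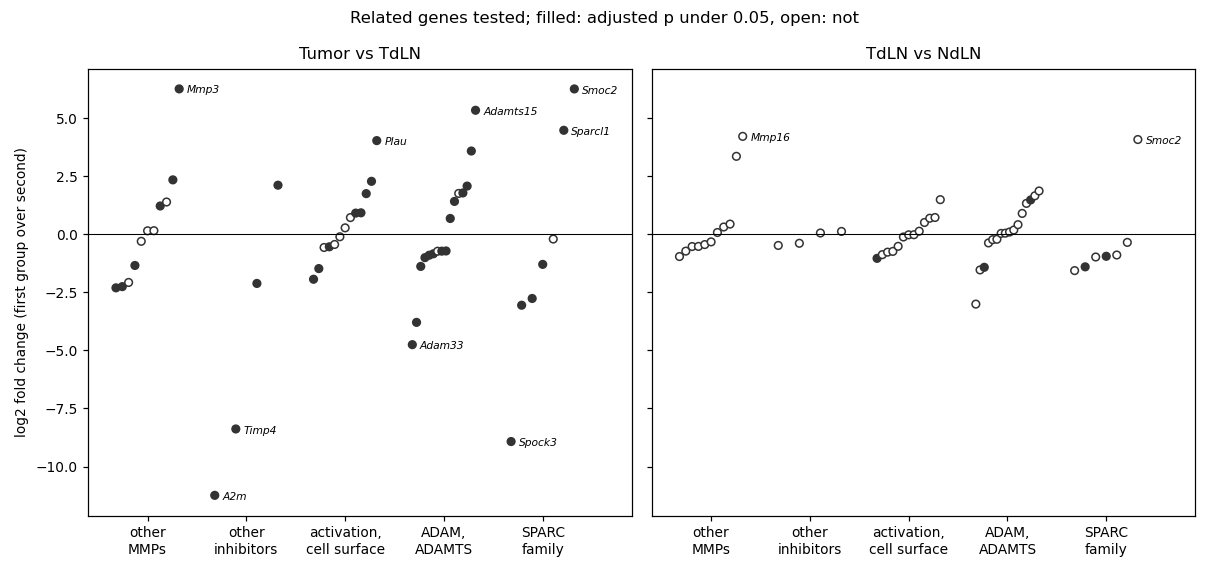
Log2 fold change of every tested gene of the 5 related lists in Tumor against TdLN (left) and TdLN against NdLN (right); each point is a gene, filled where its adjusted p was under 0.05. The left panel spreads widely in both directions, with Timp4 and Spock3 far down and Mmp3 and Smoc2 far up, and the right panel has 5 filled points; A2m rests on 1 count in Tumor libraries, so its place is only approximate.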

How the data were processed

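RNA of sorted lymphatic endothelial cells was sequenced in 15 libraries, 5 each from Tumor, TdLN and NdLN. Per the labels' protocols, 1 ng of RNA was amplified with a low-input kit, 200 pg of cDNA went into a transposase-based preparation, and pools of 10 libraries gave single reads of 50 bases. No pool is recorded for a library here, and whether pools differ was not tested. The deposited table gives, for each gene and library, a raw read count that the authors did not normalize. The submitters' processing notes name build GRCm38 and the tools CASAVA (1.8.2), STAR (2.4) and featureCounts (1.4.6). Which annotation release and strand setting were used was not given in the sources used here. Reads of overlapping or antisense genes cannot be separated without them. Gene names, coordinates and exon lengths come from GENCODE M21, which held 21628 of 21839 IDs. The other 211 IDs carried 0.0859% of counts.

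The test was that of edgeR 4.0.16, run in R 4.3.3 (TMM, filterByExpr, robust glmQLFit and glmQLFTest) in 1 fit of 15 libraries, with Benjamini-Hochberg adjustment over 13887 genes and a threshold of 0.05. The SE was derived from the quasi-likelihood F statistic. The step was tested on simulated data. Comparisons share libraries and are not independent of each other. Total counts of 23830337 to 37437282 per library set the counting error. The labels name no molecular identifiers, so amplified reads need not be independent molecules. Libraries of 1 group differed by more than sampling noise (lowest mean chi-square per gene 28.3), so none was counted as a duplicate.

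The members and the lists were chosen with earlier results of these data known. Named genes are the 8 members, up to 4 genes per related list with the smallest adjusted p in the comparison described, the 3 genes nearest in profile to each member (average log2 CPM of at least 5, prior count of 2, root mean square difference), and Pecam1, Pdpn, Ptprc and Prox1. Part of the genes so named is described. Marker sums not given above were, for pericytes and smooth muscle, 63.2 to 166 CPM in Tumor, 93.1 to 197 CPM in TdLN and 72.4 to 176 CPM in NdLN libraries. For lymph node stroma they were 3.81 to 38.7, 10.7 to 39.9 and 9.15 to 81.7 CPM in the same groups.

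Alternatives were RLE, upper quartile and no scaling factors, scaling without pigment markers, no filter, a filter at a CPM of 10 in 5 libraries, DESeq2 1.42.0, voom with quality weights (limma 3.58.1), a fit of the compared groups only, a replicate block, glmTreat with a log2 threshold of 1, omission of each library, other gene lengths and ratios without Timp3 or Mmp14. A surrogate variable (sva 3.50.0) was added after seeing the data. Promoter sequences are those of RefSeq (GRCm38.p6). Figures were drawn with matplotlib 3.10.9.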

Additional observations from a re-analysis of the deposited data

How the results depend on the processing

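Of 528 alternative fits of the members' log2 fold changes (12 settings, and each library left out), 506 kept direction and call, 15 lost a call, 6 gained one and 1 turned direction: Mmp2 in TdLN against NdLN, which was not called, ranged from -0.55 to 0.10 with a library left out and was 0.10 without NdLN 4. Sparc in TdLN against NdLN accounts for most losses, and lost its call also with upper quartile factors (adjusted p = 0.0595), so 1 member, Timp1, was left there. Timp2 in Tumor against TdLN passed without TdLN 3 (-1.82, edgeR adjusted p = 0.0404) and in voom (-1.85, adjusted p = 0.0445), and Mmp14 passed in voom (0.50, adjusted p = 0.0476). The causes were not tested. Between the nodes 484 genes were called in the main fit, 972 by DESeq2 and 817 by voom, and 225 to 564 with a library left out (members 1 to 2, related genes 2 to 6, against 2 and 5). DESeq2 called 11 related genes there. With a log2 threshold of 1, glmTreat called 3525 genes and 25 related genes in Tumor against TdLN, 4189 and 28 in Tumor against NdLN, and 0 genes, 0 members and 0 related genes between the nodes, a stricter question by construction. With library totals alone the median log2 fold change of all genes shifted by 0.109, 0.163 and 0.054 in Tumor against TdLN, Tumor against NdLN and TdLN against NdLN, and 63.5% of calls between the nodes were higher in TdLN, against 52.9% in the main fit.

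No pairing by replicate number was evident, but weak correlations over 5 libraries a group cannot exclude shared animals. Deviations of libraries with the same number correlated at -0.21 to -0.039 between Tumor and TdLN (0 of 5 over 0.1). The range was -0.092 to 0.194 between Tumor and NdLN (2 of 5) and -0.094 to 0.248 between TdLN and NdLN (2 of 5). In the same order, 0, 2 and 1 libraries correlated best with their own number. With the replicate number as a block, 8381, 8995 and 400 genes and 5, 7 and 1 members were called in these comparisons, and Sparc in TdLN against NdLN was at 0.48 ± 0.12 (edgeR adjusted p = 0.0545).

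With the length of the longest transcript, CPM per kilobase in Tumor, TdLN and NdLN libraries was 289, 221 and 157 for Mmp14, 93.7, 576 and 622 for Timp3 and 1280.3, 1376 and 981 for Sparc, and the mean MMP to TIMP ratio was 1.24, 0.70 and 0.631, against 0.904, 0.770 and 0.773 with exon lengths. Without Timp3 the ratio was 1.22, 2.12 and 3.84, and without Mmp14 it was 0.247, 0.558 and 0.600 in the same groups. The order of the members also changed with the longest transcript. Timp3 (93.7) then stood above Timp2 (78.5) in Tumor and Mmp14 (157) above Timp2 (132) in NdLN libraries, the reverse of the order with exon lengths. Of the 24 nearest genes, 2 were also nearest after centring inside groups. Depth limits Mmp2 and Mmp15 most, with 36 to 219 counts of Mmp2 per node library.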
